A study of Mus musculus with 1248 samples.

Results

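The genes described here are 45 genes of one stretch of mouse chromosome 16, between 15 and 25 Mb of build mm10, that were listed because many of them were higher in the mouse mammary carcinoma line 4T1.2 than in 4T1. They were picked by symbol among 232 entries of that stretch and 40756 genes in the count table. The list was drawn from the comparison of 4T1.2 with 4T1 in culture and at day 4, so every value of those 2 contrasts is given for the members as a description and carries no test. The first member begins at position 15552077 (Ube2v2) and the last ends at position 24992578 (Lpp). The name of the list, genes raised in 4T1.2, held for most of the members and not for all: 34 of the 44 members that could be compared in culture were at least 1.5-fold higher, and 10 were not.

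4T1 is a line from a spontaneous mammary tumour of a BALB/c mouse, and 4T1.2 is a clonal line derived from it that spreads to bone. A single clone stands for 4T1.2 throughout. Firefly luciferase and mCherry had been introduced into each line, and no group was without these labels. Cells of both lines were injected into the heart of female BALB/c mice, and mCherry-positive cells were sorted singly from the hindlimbs at day 4 for 4T1.2, and at day 4, 10 or 16 for 4T1. The 7 groups were completed by each line in culture and by 4T1 from a primary tumour grown in the mammary fat pad, taken at day 22. Ages of the mice, and which mouse, plate or culture a cell came from, are not given in the sources used here. Each group was therefore 1 sample, cells were not counted as replicates, and line and batch cannot be told apart.

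Chromosomes of tumour lines are often gained, lost or rearranged in pieces, and neighbouring genes within such a piece can then share a change in RNA level even when their products have nothing to do with each other. Genes that lie side by side may also share a change because their chromatin state differs. RNA counts alone do not show how many copies of a gene a cell holds, and no DNA was measured here. The stretch includes the mouse counterpart of much of the human DiGeorge deletion region (Dgcr2, Dgcr8, Ranbp1, Trmt2a, Hira, Mrpl40, Cdc45, Gnb1l) and of a part of the long arm of human chromosome 3 (Psmd2, Igf2bp2, Etv5, Eif4a2, Bcl6, Lpp).

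Of 1248 sorted wells, 1218 passed a filter on detected genes, counts and mitochondrial share. A well was taken as a tumour cell when its Krt8 plus Krt18 level, keratins of epithelial cells, exceeded the summed level of the blood-cell genes Ptprc, Coro1a, Laptm5 and Rac2. This gave 54 (culture), 137 (day 4), 54 (day 10), 71 (day 16) and 85 (fat pad) tumour wells for 4T1. For 4T1.2 it gave 53 in culture plus 47 in bone at day 4. The other 717 wells were called host wells. Summed counts of tumour wells ran from 138848006 to 451319997 per group, and the median tumour well held 3085881 counts. Levels below are CPM, counts per 1000000 counts, of the summed wells unless a single well is named. Intervals of CPM are exact Poisson intervals at 95%, which cover the counting error of reads only. They cover neither that of molecules, since the reads carried no molecular barcodes, nor the spread between wells, and so are too narrow. Of 5 tumour-cell markers (Krt8, Krt18, Epcam, Krt19, Krt7) all 5 reached 5 CPM in every 4T1 group and 3 did in the 4T1.2 groups. Of 10 pan-haematopoietic markers 1 reached 5 CPM in either culture, with a summed level of 6.75 CPM in 4T1 culture against 143 CPM in 4T1.2 culture. Neutrophil markers summed to 8.44 CPM (1 of 6 at 5 CPM) in 4T1 culture and 178 CPM (5 of 6) in 4T1.2 culture, and the part of either list in the culture contrast was not tested. Of the pan-haematopoietic markers all 10 reached 5 CPM in tumour wells of both lines at day 4, with a summed level of 180 CPM in 4T1 and 632 CPM in 4T1.2. Ptprc, Cd53 and Cytip had no count in 4T1 culture.

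The change between the lines came in steps along the chromosome. The promoters of 6 members on either side of 3 such steps are shown, so that they can be read beside the levels. All but that of Eif4a2 lie at the end of the gene away from the step, so they are not the boundary sequence. Scarf2 (raised) and Dgcr2 (not raised) flank the first, Trmt2a (not raised) and Dgcr8 (raised) the second, and Dnajb11 (raised) and Eif4a2 (not raised) the last. Trmt2a and Dgcr8 overlap at their ends, so some reads at the second step could belong to either gene. Each is the 250 bases before the RefSeq start of the gene, 5′ to 3′ on the gene's own strand, from RefSeq on GRCm38.p6, the same assembly as mm10. They lie at chr16:17797032-17797281, plus strand (Scarf2), chr16:17891729-17891978, minus strand (Dgcr2), chr16:18248633-18248882, plus strand (Trmt2a), chr16:18289169-18289418, minus strand (Dgcr8), chr16:22857595-22857844, plus strand (Dnajb11) and chr16:23107218-23107467, plus strand (Eif4a2). Capitals mark the letters CCAAT on either strand, which read ATTGG on the other.
Scarf2: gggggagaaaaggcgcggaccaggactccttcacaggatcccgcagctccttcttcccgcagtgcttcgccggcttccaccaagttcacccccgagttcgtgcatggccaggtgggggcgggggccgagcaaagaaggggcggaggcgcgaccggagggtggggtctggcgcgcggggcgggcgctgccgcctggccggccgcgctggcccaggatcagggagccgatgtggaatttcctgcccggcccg
Dgcr2: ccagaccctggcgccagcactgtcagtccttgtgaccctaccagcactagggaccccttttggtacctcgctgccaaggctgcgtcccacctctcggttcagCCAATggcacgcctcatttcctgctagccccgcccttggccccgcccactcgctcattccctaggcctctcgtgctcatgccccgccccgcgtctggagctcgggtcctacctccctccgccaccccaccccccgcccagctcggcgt
Trmt2a: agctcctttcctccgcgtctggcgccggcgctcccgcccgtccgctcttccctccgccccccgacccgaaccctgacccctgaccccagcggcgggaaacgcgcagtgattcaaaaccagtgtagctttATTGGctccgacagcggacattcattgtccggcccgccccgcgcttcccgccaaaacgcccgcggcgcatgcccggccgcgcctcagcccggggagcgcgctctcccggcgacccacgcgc
Dgcr8: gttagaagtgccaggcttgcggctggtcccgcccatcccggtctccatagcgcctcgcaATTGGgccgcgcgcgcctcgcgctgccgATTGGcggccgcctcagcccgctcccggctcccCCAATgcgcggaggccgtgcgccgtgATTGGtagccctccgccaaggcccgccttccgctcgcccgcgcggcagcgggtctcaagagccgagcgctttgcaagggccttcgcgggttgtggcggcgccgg
Dnajb11: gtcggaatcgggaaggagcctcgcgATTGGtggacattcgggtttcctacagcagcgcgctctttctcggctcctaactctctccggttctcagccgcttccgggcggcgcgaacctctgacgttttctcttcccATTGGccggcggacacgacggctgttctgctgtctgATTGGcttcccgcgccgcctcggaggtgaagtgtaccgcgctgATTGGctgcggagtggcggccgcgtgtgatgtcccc
Eif4a2: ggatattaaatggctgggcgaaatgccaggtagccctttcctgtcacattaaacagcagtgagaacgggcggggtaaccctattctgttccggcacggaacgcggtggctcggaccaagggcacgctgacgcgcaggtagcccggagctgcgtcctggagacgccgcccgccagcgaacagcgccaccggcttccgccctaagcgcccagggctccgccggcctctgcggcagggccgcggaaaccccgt

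Dgcr8 and Dnajb11 each held the motif 4 times, Dgcr2 and Trmt2a each held it 1 time, and Scarf2 and Eif4a2 did not hold it in these windows. Among all 32851 promoters of the RefSeq table, 33.8% held at least 1 match over the same length. RefSeq promoters were found for 41 of the 45 members, and 18 of their 48 promoters, or 37.5%, held a match. A raised gene (Scarf2) and an unraised gene (Eif4a2) both lacked the letters here.

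In culture, 44 of the 45 members reached 5 CPM in either line. Of these, 34 were at least 1.5-fold higher in 4T1.2 and none was 1.5-fold lower, where 13.7% of all 10081 genes compared were higher and 9.94% were lower. The members' median log2 ratio of CPM plus 5 was 1.41, and the median of all genes was 0.09. At least 2-fold higher were 30 members, against 4.45% of all genes. The ratios ran from −0.22 for Ube2v2 to 3.43 for Etv5 and Senp2. Map3k13, a kinase upstream of JNK, stayed under 5 CPM in both lines, at 0.23 CPM in 4T1 and 0.77 CPM in 4T1.2, and was not compared.

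At day 4 in bone, 44 members could again be compared, and 34 were at least 1.5-fold higher in 4T1.2, where 9.41% of all 10378 genes were. Bcl6 alone among the members was at least 1.5-fold lower, a side that held 17.7% of all genes. The members' median log2 ratio was 1.196, and that of all genes was −0.08. At least 2-fold higher were 26 members, against 3.38% of all genes. The 4 groups of these contrasts are separate sets of wells, and 32 members were at least 1.5-fold higher in both. Across the 44 members the 2 log2 ratios correlated with Pearson's r = 0.851 and Spearman's rho = 0.795, a description over genes that share their libraries. The ratios lay within 0.5 of each other for 33 members. The list of 1.5-fold calls differed at 4 members: Lztr1 (1.13 in culture, 0.32 at day 4) and Rfc4 (0.87, 0.43) were past it in culture only, and Ydjc (0.39, 1.04) and Pkp2 (−0.13, 1.69) at day 4 only. In culture the members just under the 1.5-fold line were Ydjc at 0.39 and Bcl6 at 0.42, and those just over it were Rfc4 at 0.87 and Dgcr8 at 0.88.

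**Figure D1:**
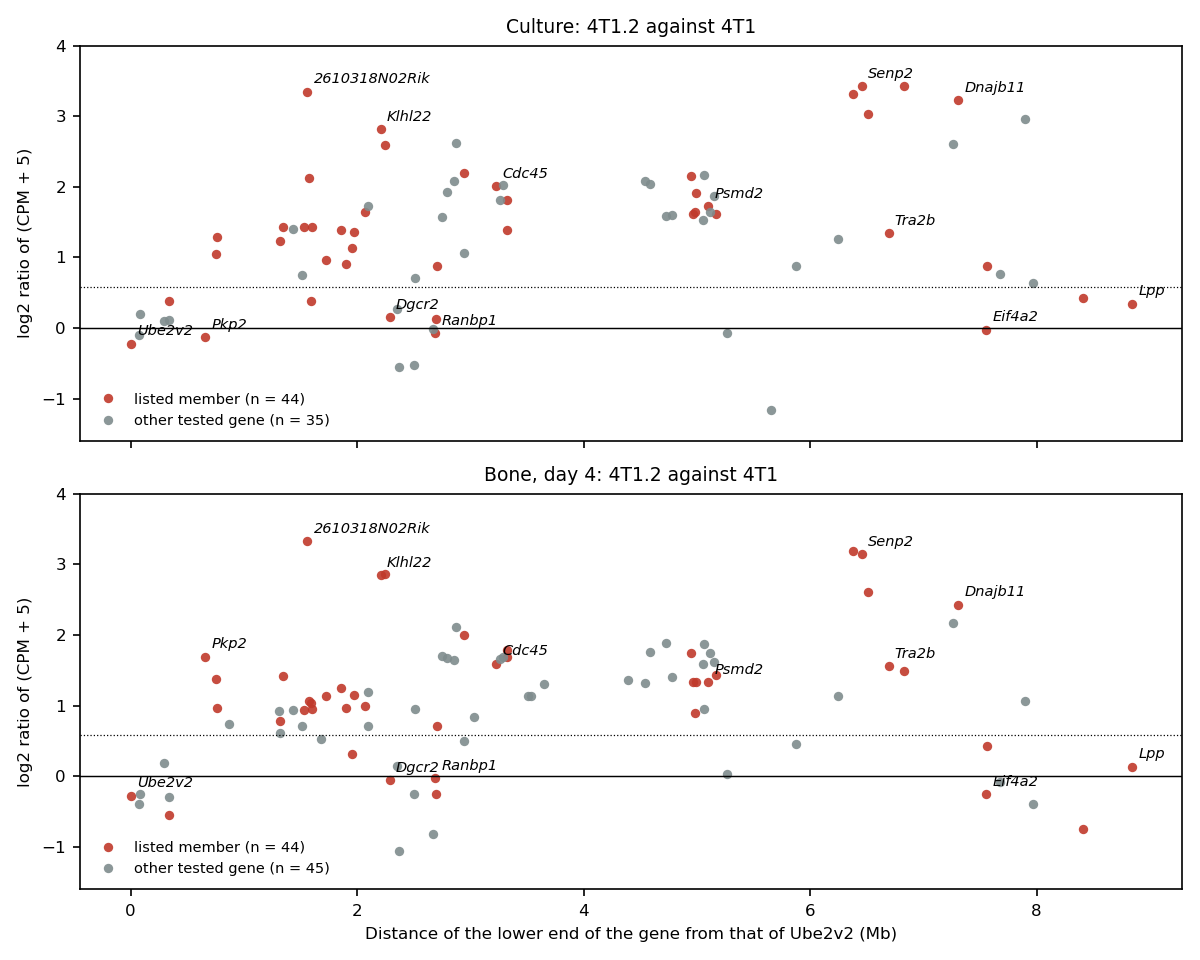
Log2 ratio of CPM plus 5 (4T1.2 against 4T1) of every compared gene of the stretch, by the distance of its lower end from that of Ube2v2 in Mb, in culture (top) and at day 4 in bone (bottom). Red points are listed members, grey points other genes, and the dotted line is 1.5-fold; the ratio stays near 0 at Ube2v2, near 0 again at Dgcr2 to Ranbp1, is highest from Senp2 to Dnajb11, and drops at Eif4a2.

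Read in chromosomal order, the members fell into stretches of similar ratio, shown in the plot of ratio by distance. The borders of these stretches were set after the culture values were seen, so medians and counts inside them describe and do not test the steps. From Ube2v2 to Pkp2, position 15552077 to 16272712, 7 compared genes had a median log2 ratio of 0.10 in culture and −0.28 at day 4. From Yars2 to Med15, up to position 17732891, the medians were 1.37 over 18 genes and 0.96 over 23. Klhl22 and Scarf2, the next 2 genes, stood at 2.82 and 2.59 in culture and at 2.85 and 2.87 at day 4. The ratio then returned to the level of the first stretch over Dgcr2 to Trmt2a, with 8 genes at medians of 0.05 and −0.16.

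From Dgcr8 to Polr2h, position 18253948 to 20722267, the medians were 1.81 over 26 genes and 1.59 over 32. A gap of weakly expressed genes followed, Rps10-ps2 to Map3k13, where 4 genes in culture had a median of 0.40 and 3 at day 4 had 0.46. The highest step ran from Tmem41a to Dnajb11, position 21934326 to 22879634, with medians of 3.22 and 2.43 over 7 genes. Its members are Tmem41a (chr16:21934326-21947552, minus strand), Senp2 (chr16:22009484-22049269, plus), Igf2bp2 (chr16:22059009-22163299, minus), Tra2b (chr16:22244549-22266005, minus), Etv5 (chr16:22381309-22439719, minus) and Dnajb11 (chr16:22857845-22879634, plus), placed by GENCODE on mm10. Tra2b was the exception among these members in culture, at 1.35, where each of the others stood above 2. At day 4 Tra2b stood at 1.55 and Etv5 lower still, at 1.49, with the others above 2. The last stretch, Eif4a2 to Lpp up to position 24992578, had medians of 0.64 and −0.09 over 7 genes, so that in culture its median, though not that of Eif4a2, was past the 1.5-fold line of 0.585. At the break between Dnajb11 and Eif4a2 the log2 ratio went from 3.22 to −0.02 in culture and from 2.43 to −0.25 at day 4.

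Of the 34 members inside the 4 raised stretches, 33 were at least 1.5-fold higher in culture, with Ydjc as the exception, and 33 at day 4, with Lztr1 as the exception. Of the 11 members outside them, 10 could be compared, and 1 was 1.5-fold higher in culture (Rfc4) and 1 at day 4 (Pkp2). The genes of the stretch that the list left out were also mostly higher. In culture 35 of those 187 could be compared, and their median log2 ratio was 1.40, with 25 at least 1.5-fold higher and 1 lower (Ephb3, 6.27 CPM in 4T1 and 0.02 CPM in 4T1.2). At day 4, 45 could be compared, with a median of 0.95, 31 higher and 2 lower. Txnrd2, the mitochondrial thioredoxin reductase, went from 49.2 CPM (4T1) to 328 CPM (4T1.2) in culture, and Eif4g1, the scaffold of the cap-binding complex, had 241 and 763 CPM. Slc25a1 and Dgcr6, between Dgcr2 and Trmt2a, had log2 ratios of −0.55 and −0.52 in culture. Counts inside the 4 raised stretches, for members and unlisted genes, rest on borders set after the culture values were seen and are no test. All 19 compared unlisted genes there were at least 1.5-fold higher in culture (median 1.81, members there 1.63). At day 4, 28 of 30 were (median 1.34, members there 1.36). Exons of many of them overlap other genes. Among the unlisted genes of these stretches with no such overlap, 7 of 7 were higher in culture (median 1.59) and 15 of 15 at day 4 (1.14), where the members without overlap had 1.92 and 1.49. Over the whole 15 to 25 Mb, unlisted genes without overlap had medians of 0.71 in culture (19 genes, 52.6% higher) and 0.92 at day 4 (26 genes).

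Outside 15 to 25 Mb, 242 genes of chromosome 16 had a median log2 ratio of −0.10 in culture, and 247 had −0.38 at day 4. The nearest compared genes before the stretch were Nde1, Fopnl and Abcc1, at 0.10, 0.13 and 0.28 in culture. Those after it were P3h2, Il1rap and Ccdc50, at −2.02, 0.40 and 0.95. The genome was also cut into windows of 5 Mb with at least 10 compared genes. Of 349 windows in culture, chromosome 16 from 20 to 25 Mb had the highest median, 1.63, and from 15 to 20 Mb the second highest, 1.23. The window after these, on chromosome 9 from 35 to 40 Mb, had 0.78. At day 4 the same 2 windows led 356 windows with 1.37 and 0.96, followed by chromosome 10 from 5 to 10 Mb at 0.63. The list and its stretch were drawn from these contrasts, so the ranks of these 2 windows describe and are no test. Chromosome 16 from 30 to 35 Mb was also high, with 0.60 over 34 genes (rank 8) in culture and 0.58 over 37 genes (rank 4) at day 4, while the windows from 40 to 50 Mb lay between −0.36 and −0.65.

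Single wells showed the same separation. Summed over the 45 members, the lowest, median and highest 4T1 culture wells held 1637, 3927 and 6114 CPM, and 4T1.2 culture wells held 2705, 12825 and 16599 CPM. At day 4 the 4T1 wells held 1247, 3962 and 6416 CPM and the 4T1.2 wells 6640, 11691 and 20398 CPM. All 47 wells of 4T1.2 at day 4 lay above every one of the 137 wells of 4T1 at day 4, and 51 of the 53 4T1.2 culture wells lay above every 4T1 culture well. The members were chosen on these groups, so this separation is no test of the list. Summed over the 6 members from Tmem41a to Dnajb11, the medians of 4T1 were 567 CPM in culture and 688 CPM at day 4, and those of 4T1.2 were 3823 and 3797 CPM. The count of 4T1.2 wells above every 4T1 well was again 51 of 53 in culture and 47 of 47 at day 4. The sum over the 10 members of Ube2v2 to Pkp2, Dgcr2 to Trmt2a and Eif4a2 to Lpp overlapped between the lines, with medians of 922 and 897 CPM in culture and of 858 and 982 CPM at day 4.

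The 2 culture wells of 4T1.2 that stood apart held 2705 and 3677 CPM over the members, inside the range of 4T1 culture, while the lowest of the other 51 held 6520 CPM. To see whether these wells carried other features of 4T1, 24 genes outside chromosome 16 were taken that were at least 4-fold higher in 4T1 than in 4T1.2 at day 4, above 50 CPM, and under 5 CPM in host wells. This list was built after the wells were seen, on groups that do not include them. Over these genes the lowest, median and highest wells held 566, 2464 and 9600 CPM in 4T1 culture and 50.8, 246 and 747 CPM in 4T1.2 culture. The 2 wells held 170 and 231 CPM, below every 4T1 culture well. They therefore lay with 4T1.2 on these 24 genes and within the range of 4T1 on the chromosome 16 members. Over the 10 members of the 3 stretches named above they held 548 and 518 CPM, also low for 4T1.2 culture, whose lowest well is the second of these and whose lower quartile was 817 CPM. Without them the members' median log2 ratio in culture was 1.44, and the same 34 members were at least 1.5-fold higher.

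**Figure D2:**
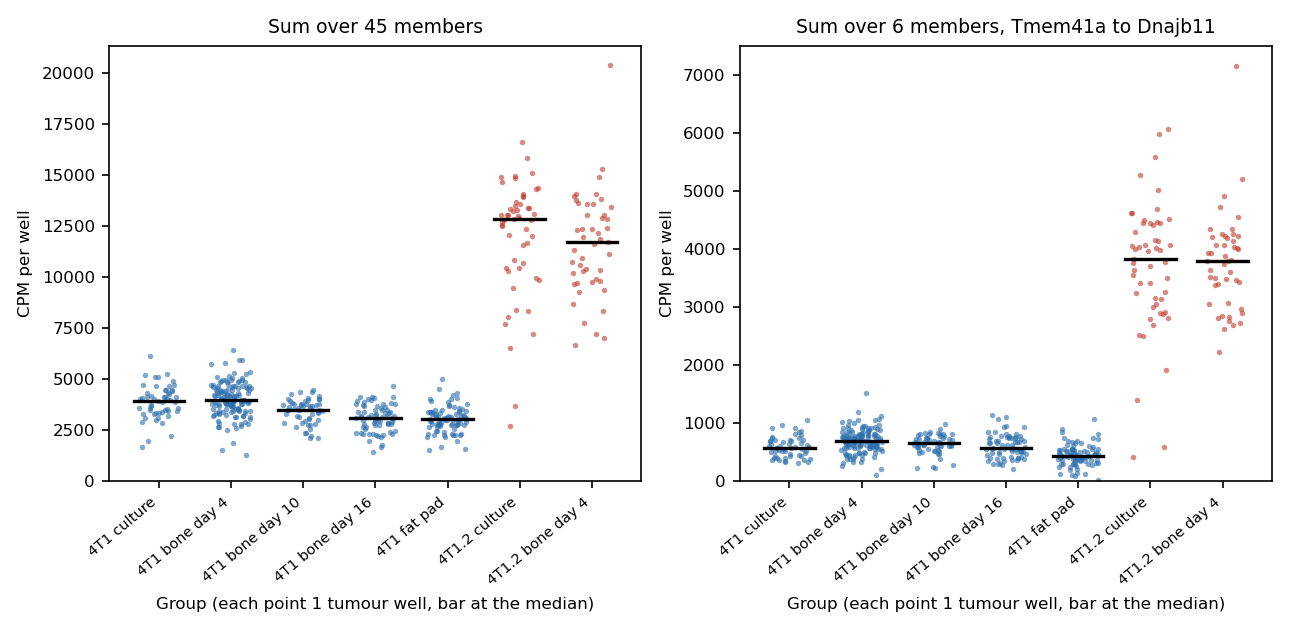
CPM per tumour well summed over the 45 members (left) and over the 6 members from Tmem41a to Dnajb11 (right), by group, with 1 point per well and a bar at the median. Blue points are 4T1 and red points 4T1.2; all 47 wells of 4T1.2 at day 4 lie above every 4T1 well of day 4, and 2 wells of 4T1.2 culture lie among the 4T1 wells.

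Members are taken by role below. They were listed on these contrasts, so the counts per role describe the list and are no result about a function. Among all genes compared, 13.7% were at least 1.5-fold higher in culture and 9.41% at day 4. The 5 members Cdc45, Rfc4, Spidr, Top3b and Hira act in DNA replication, repair and chromatin. Of these, 4 were at least 1.5-fold higher in 4T1.2 culture and 3 at day 4. Cdc45, which with the MCM and GINS proteins forms the helicase that opens DNA at the replication fork, held 11.3, 96.7 and 315 CPM in the lowest, median and highest 4T1 culture wells and 34.6, 405 and 889 CPM in 4T1.2 culture wells. The ranges overlapped, with the median 4T1.2 well above the highest 4T1 well. At day 4 the median wells held 77.3 and 322 CPM. The summed level of Cdc45 went from 103 to 428 CPM in culture (log2 ratio 2.01) and from 101 to 313 CPM at day 4 (1.59). Top3b, a topoisomerase that acts on DNA and RNA, went from 46.1 to 115 CPM and from 50.0 to 89.1 CPM. Hira, a chaperone that deposits histone H3.3, was low in 4T1 (3.32 and 5.49 CPM) and stood at 16.8 and 28.7 CPM in 4T1.2. Rfc4, a subunit of the clamp loader, had log2 ratios of 0.87 and 0.43, and Spidr, a scaffold in homologous recombination, had 0.38 and −0.55. Exons of Cdc45, Top3b, Hira, Rfc4 and Spidr overlap other genes, so some of their reads could belong to Ufd1, Vpreb1, Gm28539, Eif4a2 and Cebpd in that order.

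Of the 8 members in RNA processing and transcription, 7 were higher in 4T1.2 in each contrast, and Bcl6 was the exception in both. Igf2bp2, an RNA-binding protein that stabilises growth-related transcripts, held 27.8, 86.1 and 259 CPM in the lowest, median and highest 4T1 culture wells and 47.2, 741 and 1743 CPM in those of 4T1.2. At day 4 the wells held 0.39, 117 and 320 CPM in 4T1 and 245, 787 and 2662 CPM in 4T1.2. The ranges overlapped at their ends, and the median 4T1.2 well lay above every 4T1 well in both contrasts. Its summed level went from 89.2 to 768 CPM in culture and from 125 to 788 CPM at day 4, log2 ratios of 3.04 and 2.61. Its paralog Igf2bp1 on chromosome 11 had 29.7 and 30.1 CPM in culture and 6.401 and 29.8 CPM at day 4, log2 ratios of 0.02 and 1.61. Tra2b, a splicing regulator, went from 235 to 604 CPM and from 287 to 852 CPM. Etv5, an ETS transcription factor, held 0, 16.3 and 102 CPM in 4T1 culture wells and 1.39, 237 and 797 CPM in 4T1.2 culture wells. It moved the most between the contrasts, from a log2 ratio of 3.43 in culture to 1.49 at day 4, a gap of 1.94. Its level in 4T1 went from 21.1 CPM in culture to 62.4 CPM at day 4, and in 4T1.2 from 277 to 184 CPM.

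Polr2h, a subunit shared by the RNA polymerases, had 58.0 and 187 CPM in culture and 83.5 and 233 CPM at day 4. Dgcr8, the partner of Drosha in microRNA processing, had the smallest raised ratio of this group, 0.88 in culture and 0.71 at day 4. Some of its reads could belong to Trmt2a, which overlaps its end. The splicing-associated isomerase Ppil2 had 1.43 and 0.94, and the zinc-finger protein Thap7 had 1.36 and 1.14. Bcl6, a transcriptional repressor of germinal-centre B cells, lies in the last stretch and was low everywhere in these 4 groups. In culture it stood at 6.72 CPM (4T1) against 10.7 CPM (4T1.2), and 10.6 CPM (10.3 to 10.9) and 4.27 CPM (3.95 to 4.62) at day 4. The median well held between 2.03 and 5.36 CPM in all 4 groups, and the wells of the 2 lines overlapped.

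Of the 6 members of the translation machinery, 4 were higher in 4T1.2 in each contrast. Eif2b5, the catalytic subunit of the exchange factor eIF2B, held 16.3, 109 and 245 CPM in 4T1 culture wells and 65.6, 418 and 886 CPM in 4T1.2 culture wells. Its summed level went from 99.2 to 460 CPM in culture and from 108 to 373 CPM at day 4. Mrpl40, a protein of the mitochondrial ribosome, went from 80.5 to 294 CPM and from 95.1 to 339 CPM, and the median wells held 82.8 and 297 CPM in culture. Both genes were raised in both contrasts. Yars2, the mitochondrial tyrosine tRNA synthetase, had ratios of 1.05 and 1.38, and Abcf3 had 1.92 and 1.33. Eif4a2, an RNA helicase of cap-dependent translation, lay just past the last raised stretch and had 280 and 275 CPM in culture and 344 and 289 CPM at day 4. Its median wells held 280 and 253 CPM in culture and 282 and 290 CPM at day 4, with overlapping ranges. Trmt2a, a tRNA methyltransferase, had ratios of 0.13 and −0.25.

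Of the 6 members in the ubiquitin, SUMO and proteasome systems, 5 were higher in culture and 4 at day 4. Psmd2, a scaffold subunit of the 19S regulatory particle of the proteasome, had 143 CPM per kb in 4T1 culture and 477 CPM per kb in 4T1.2 culture, the highest of the 45 members in both lines. Its wells held 167, 611 and 1000 CPM in 4T1 culture and 405, 1955 and 3327 CPM in 4T1.2 culture. The summed level went from 578 CPM (574 to 581) to 1926 CPM (1920 to 1933) in culture and from 583 to 1474 CPM at day 4. Senp2, a protease that removes SUMO, held 4.02, 68.4 and 153 CPM in 4T1 culture wells and 50.2, 732 and 1265 CPM in 4T1.2 culture wells. At day 4 it held 0, 55.2 and 427 CPM in 4T1 and 318, 599 and 1219 CPM in 4T1.2, and the ranges overlapped between the lowest 4T1.2 and the highest 4T1 well. Its log2 ratios were 3.43 and 3.15, a 10.8-fold and an 8.86-fold difference on the scale of CPM plus 5.

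Klhl22, an adaptor of the CUL3 ubiquitin ligase, went from 77.4 to 576 CPM in culture and from 60.7 to 469 CPM at day 4. Ube2l3, a ubiquitin-conjugating enzyme, went from 136 to 376 CPM and from 169 to 330 CPM. Lztr1, another CUL3 adaptor, known for its action on RAS proteins, had 1.13 and 0.32. Ube2v2, a catalytically inactive partner of Ube2n, was the first member on the chromosome and had 36.6 and 30.6 CPM in culture and 33.1 and 26.4 CPM at day 4.

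The 2 members that act in protein folding in the endoplasmic reticulum, Dnajb11 and Sdf2l1, work with the chaperone Hspa5, and both were higher in each contrast. Dnajb11 held 24.3, 132 and 333 CPM in 4T1 culture wells and 74.0, 1147 and 1994 CPM in 4T1.2 culture wells. At day 4 it held 1.12, 143 and 361 CPM in 4T1 and 292, 787 and 1443 CPM in 4T1.2. The median 4T1.2 well exceeded the highest 4T1 well in both contrasts, and the ranges overlapped at their ends. The log2 ratios were 3.22 and 2.43. Sdf2l1 went from 53.4 to 250 CPM in culture (2.13) and from 37.2 to 83.5 CPM at day 4 (1.07). Within 4T1.2 its level at day 4 lay 1.53 log2 units under culture, the lowest ratio of any member in that line.

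All 6 members of membrane traffic, lipids and organelles were higher in both contrasts, against 13.7% and 9.41% of all genes. Ap2m1, a subunit of the clathrin adaptor AP-2, held 159, 372 and 664 CPM in 4T1 culture wells and 216, 1029 and 1916 CPM in 4T1.2 culture wells. The sums went from 348 to 1098 CPM in culture and from 491 to 917 CPM at day 4. Tmem41a, a multi-pass membrane protein, held 0.28, 17.4 and 65.9 CPM in 4T1 culture wells and 2.58, 214 and 447 CPM in those of 4T1.2. At day 4 it held 0, 18.7 and 144 CPM in 4T1 and 1.56, 283 and 891 CPM in 4T1.2. The ranges overlapped, and the median 4T1.2 well exceeded every 4T1 well in both contrasts. The sums of Tmem41a were 18.0 and 223 CPM in culture and 25.4 and 271 CPM at day 4. The other 4 members of this group were Snap29, a SNARE of autophagosome fusion (1.38 and 1.25), Pi4ka, a lipid kinase of the plasma membrane (0.97 and 1.14), Dnm1l, the GTPase of mitochondrial fission (1.29 and 0.97), and Smpd4, a sphingomyelinase (1.64 and 1.00).

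Of 5 compared members in signalling and nuclear transport, 4 were higher in each contrast. Gnb1l, a WD-repeat protein, went from 22.6 to 121 CPM in culture and from 37.8 to 166 CPM at day 4. Dvl3, a transducer of Wnt signals, had 1.62 and 1.33, the phosphatase Ppm1f had 1.43 and 1.42, and Crkl, an adaptor of tyrosine kinase signals, had 0.90 and 0.96. Ranbp1, which helps hydrolysis of GTP by Ran during nuclear transport, lay in the unraised Dgcr2 to Trmt2a stretch. Its wells held 60.3, 238 and 447 CPM in 4T1 culture and 77.5, 190 and 396 CPM in 4T1.2 culture, and the ranges overlapped almost wholly. Its summed levels were 223 and 211 CPM in culture and 210 and 205 CPM at day 4.

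Of the 4 adhesion and surface members, 1 was higher in culture (Scarf2) and 2 at day 4 (Scarf2 and Pkp2). Scarf2, a scavenger-receptor family protein, held 0, 0.76 and 46.0 CPM in 4T1 culture wells and 0, 64.0 and 190 CPM in 4T1.2 culture wells. At day 4 it held 0, 4.22 and 227 CPM in 4T1 and 1.44, 150 and 560 CPM in 4T1.2. The medians were far apart and the ranges overlapped. Pkp2, a desmosomal plaque protein, had 49.3 and 44.6 CPM in culture and 29.3 and 106 CPM at day 4, and its median wells held 39.9 and 29.4 CPM in culture and 11.7 and 80.0 CPM at day 4. Dsp and Jup, which build desmosomes with it, had log2 ratios of −2.16 and −2.35 in culture. Lpp, a LIM protein of focal adhesions, had 0.34 and 0.14, and Dgcr2, a membrane receptor, 0.15 and −0.06. Of the remaining members, 2610318N02Rik was nearly unexpressed in 4T1, with 0, 0.11 and 9.60 CPM in the lowest, median and highest culture wells against 0.22, 48.8 and 129 CPM in 4T1.2. It stood at 0.50 and 50.9 CPM in culture and at 1.86 and 63.9 CPM at day 4, and at most 1.86 CPM in any 4T1 group. Ydjc had 15.6 and 21.9 CPM in culture and 16.8 and 39.8 CPM at day 4, and shares exon sequence with Ube2l3.

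**Figure D3:**
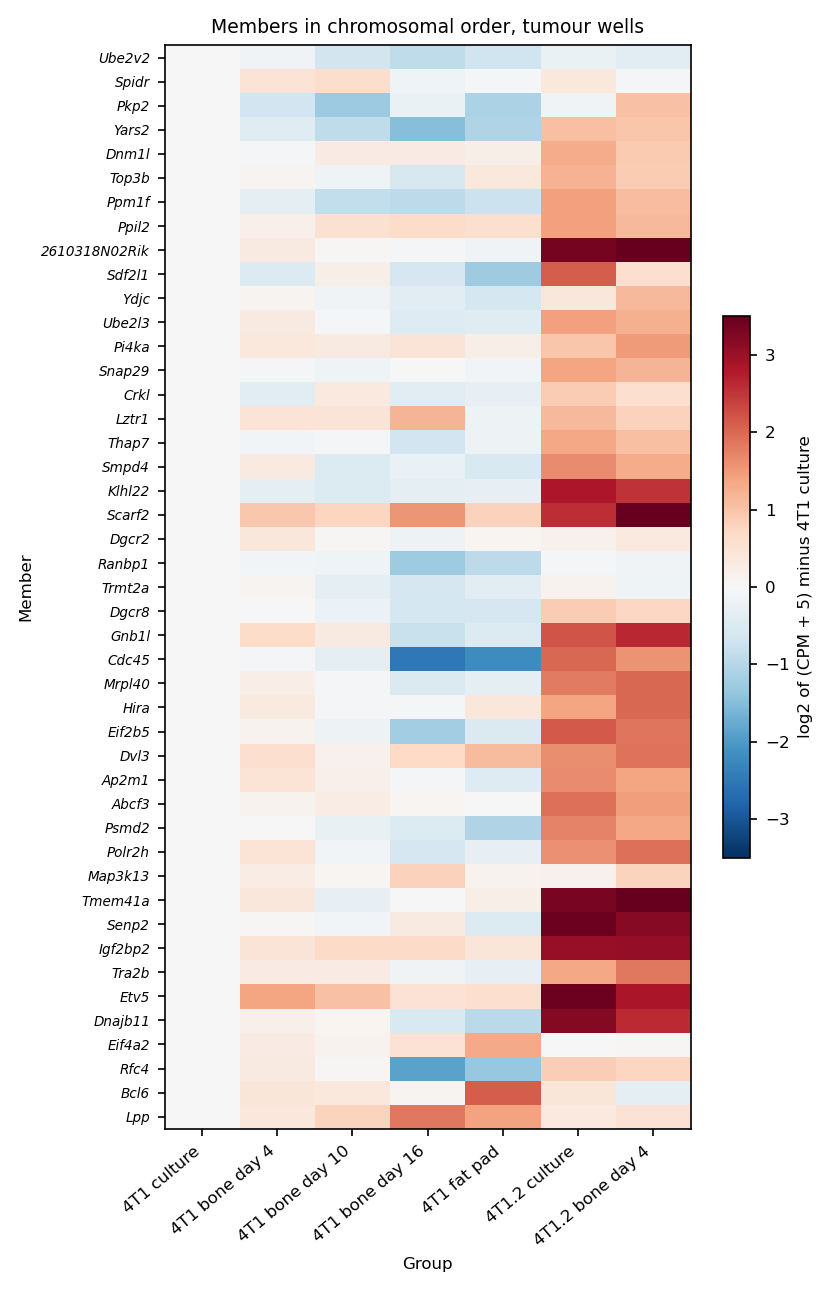
Log2 of CPM plus 5 of each member minus its value in 4T1 culture, in tumour wells of the 7 groups, with members in chromosomal order from top to bottom. Red is higher and blue lower than 4T1 culture; the 4T1.2 columns are red from Yars2 to Scarf2, from Dgcr8 to Polr2h and from Tmem41a to Dnajb11, and pale at Dgcr2, Ranbp1, Trmt2a and Eif4a2.

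Most partners of the members that are coded elsewhere in the genome were not raised with them. The partner list (proteins of the same complex or step, 101 genes) and a list of 20 paralogs were chosen with earlier results of these data known. In culture 100 partners could be compared, and their median log2 ratio was 0.02, with 11 higher and 5 lower by 1.5-fold. At day 4, 99 had a median of −0.12, with 4 higher and 13 lower. Among those higher were Sumo3, a partner of Senp2 (1.80 in culture, 1.44 at day 4), and Hspa5 in culture (1.14). Among paralogs 1 of 17 was higher and 4 were lower in culture, against 13.7% and 9.94% of all genes. The share of paralogs lower in culture was thus the larger one, on few genes. At day 4, 1 of 16 was higher and 3 were lower, against 9.41% and 17.7% of all genes. Paralog medians were 0.13 and 0.03. The shares of partners called were near or under those of all genes.

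The contrast was plainest within complexes. Cdc45 stood at 2.01 in culture and its 9 MCM and GINS partners had a median of −0.11 and a maximum of 0.42. Psmd2 stood at 1.73, and 9 other proteasome subunits had a median of −0.01 and a maximum of 0.33. Polr2h at 1.61 stood above all 11 other polymerase subunits (median 0.04), and Mrpl40 at 1.81 above all 15 other mitochondrial ribosomal proteins (median −0.06). Eif2b5 at 2.16 stood above its 4 partner subunits (median −0.22), and Ap2m1 at 1.64 above its 4 (median 0.09). At day 4 each of these 6 members also exceeded all of its partners. The members were listed on these 2 contrasts, so their standing above partners, here and below, is no test. Their partners' medians at day 4 were −0.65 for Cdc45, 0.00 for Psmd2, −0.09 for Polr2h, 0.05 for Mrpl40, −0.16 for Eif2b5 and −0.36 for Ap2m1. The median of all genes was −0.08, so the partner medians of Cdc45, Ap2m1 and Eif2b5 lay below it, and that of Polr2h close to it. The single Eif2b5 partners ran from −0.27 to 0.71 at day 4, with Eif2b3 the highest there and in culture (0.62).

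The 12 other chaperones and folding factors of the endoplasmic reticulum had a median of 0.58 and a maximum of 1.14 in culture, and a median of −0.38 at day 4. Dnajb11 and Sdf2l1 stood above all 12 in both contrasts. Of the members outside the raised stretches, Eif4a2 at −0.02 had partners with a median of 0.09, and Ranbp1 at −0.08 had partners with a median of −0.06. Rfc4, at 0.87 in culture, stood above its 4 partners, whose median was −0.32, and above all 4 at day 4 (0.43, partners' median −0.44). Pkp2 stood above its desmosomal partners in both contrasts, at −0.13 against −2.25 (2 genes) and 1.69 against −1.66 (1 gene).

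**Figure D4:**
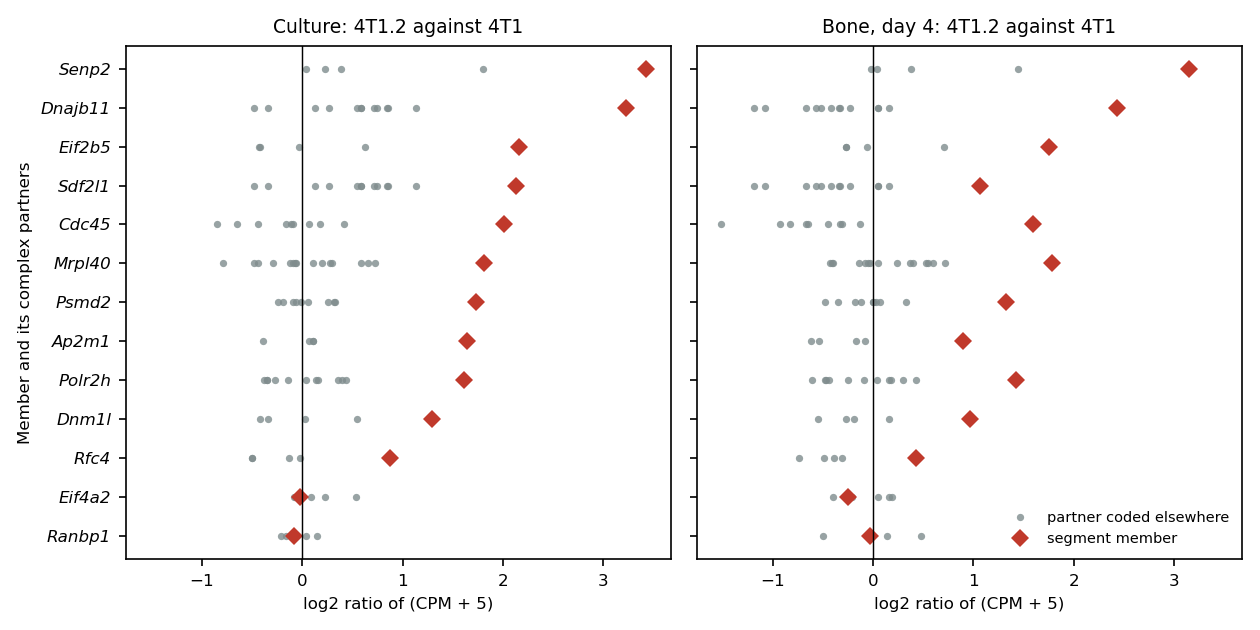
Log2 ratio of CPM plus 5 (4T1.2 against 4T1) of members with at least 4 compared partners (red diamonds) and of those partners coded elsewhere (grey points), in culture (left) and at day 4 in bone (right). Members from Senp2 down to Rfc4 lie to the right of all of their partners in both panels, while Eif4a2 and Ranbp1 lie among theirs.

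Host wells are those of the same sorts in which blood-cell genes exceeded the keratins, and the list was not chosen on them. In the 188 host wells of the 4T1.2 mice against the 359 of the 4T1 mice at day 4, 43 members could be compared, and their median log2 ratio was −0.01, next to −0.10 for all genes. At least 1.5-fold higher were 6 members, where 5.11% of all genes were, and 1 was lower (Bcl6), where 7.62% were. The 6 were Igf2bp2, Scarf2, Klhl22, Tmem41a, Senp2 and Gnb1l, all from raised stretches. Igf2bp2 went from 2.83 to 35.8 CPM and Scarf2 from 0.68 to 12.5 CPM. The summed tumour markers in host wells were 29.8 CPM for 4T1 and 57.5 CPM for 4T1.2. When host wells were limited to the 175 (4T1.2) and 338 (4T1) with a blood-cell sum above 10 times the keratins, Igf2bp2 stood at 2.56 and 4.69 CPM and Scarf2 at 0.10 and 1.39 CPM, and the log2 ratios of the 6 lay between −0.03 and 0.43. Mixes of host cells also differed, with neutrophil markers summing to 65586 CPM in 4T1 and 41087 CPM in 4T1.2 and B-lineage markers to 3554 and 4576 CPM, and their part in the other values was not tested.

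Tumour wells of 4T1.2 at day 4 held more blood-cell RNA than those of 4T1, with medians of 212 and 46.8 CPM over the 4 genes of the well rule. With a rule that asked for keratins above 10 times that sum, 22 and 126 wells were left. The members' median at day 4 was then 1.25, and 35 members of 45 were at least 1.5-fold higher. All 22 wells of 4T1.2 still lay above all 126 of 4T1 in the sum over members. 2610318N02Rik, which host wells also express (30.5 and 27.6 CPM), stood at 68.5 CPM in 4T1.2 and 1.83 CPM in 4T1 under this rule, and Bcl6 at 2.87 and 9.82 CPM.

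Within 4T1 the list as a whole moved little from culture to bone at day 4 and 10. These comparisons were not used to choose the members and share the culture sample, so they are set side by side and not correlated. At day 4, 43 members had a median log2 ratio to culture of 0.19, next to 0.05 for all genes. Of these, 3 were at least 1.5-fold higher and 1 lower, where 15.5% and 9.12% of all genes were. At day 10, 42 members had a median of 0.00, with 5 higher and 4 lower, against 21.7% and 16.9% of all genes. The 3 higher at day 4 were Etv5 (1.37), Scarf2 (0.93) and Gnb1l (0.63), and the lower one was Pkp2 (−0.67), which stood at −1.26 at day 10.

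At day 16, and in the fat pad, more members moved. At day 16 the median of 42 was −0.28, with 6 higher and 13 lower, against 28.5% and 25.6% of all genes, whose median was 0.00. In the fat pad the median of 43 was −0.29, with 6 higher and 12 lower, against 25.1% and 21.5% of all genes. In either group the share of members that were lower was close to that of all genes. The partner list was lower too, with medians of −0.64 at day 16 and −0.56 in the fat pad. The raised-stretch members had medians of −0.35 and −0.29 and the others −0.20 and −0.21. In the fat pad the sums per well lay further apart: the median well went from 1495 CPM in culture to 739 CPM over the members of Dgcr8 to Polr2h, from 780 to 555 CPM over Yars2 to Med15 and from 567 to 430 CPM over Tmem41a to Dnajb11. Over the 10 members of Ube2v2 to Pkp2, Dgcr2 to Trmt2a and Eif4a2 to Lpp, it went from 922 to 1101 CPM. Eif4a2, Lpp and Bcl6 among them were higher in the fat pad (values below), while the median log2 ratio of members outside the raised stretches was −0.21. These sums per well are without TMM.

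Both replication genes Cdc45 and Rfc4 had the lowest ratios among the members at day 16 and in the fat pad. Cdc45 went from 103 CPM in 4T1 culture to 101, 81.0 and 14.2 CPM at day 4, 10 and 16 and to 18.3 CPM in the fat pad. Its median well held 96.7 CPM in culture and 0.69 CPM at day 16, while the highest well at day 16 held 165 CPM. Rfc4 went from 50.9 CPM in culture to 10.2 CPM at day 16 and 17.3 CPM in the fat pad. For both genes the median well of day 16 and of the fat pad lay under 1 CPM, while the highest wells lay above the median culture well. Eif2b5 (−1.22), Yars2 (−1.49) and Ranbp1 (−1.23) were also lower at day 16. Psmd2 and Dnajb11 stood at −1.06 and −0.94 in the fat pad and at −0.48 and −0.54 at day 16.

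Lpp lay in the opposite direction, going from 49.3 CPM in culture to 64.6, 87.9 and 192 CPM at day 4, 10 and 16 and 138 CPM in the fat pad. Its median well held 50.0 CPM in culture and 155 CPM at day 16, and the ranges overlapped. Scarf2 stood at 1.56 and Lztr1 at 1.18 at day 16. Bcl6 was high in the fat pad alone among the 5 groups of 4T1, at 46.1 CPM against at most 10.6 CPM in the others, and Eif4a2 reached 713 CPM there against 280 CPM in culture. None of the 4T1 groups came near 4T1.2 in the most raised genes: Senp2 stood between 42.7 and 78.2 CPM in the 5 groups of 4T1 and at 715 and 606 CPM in the 2 of 4T1.2. Tmem41a stood between 13.7 and 25.4 CPM against 223 and 271 CPM, and Igf2bp2 between 89.2 and 145 CPM against 768 and 788 CPM. In the sum over members the median well of 4T1 was 3494 CPM at day 10, 3092 CPM at day 16 and 3023 CPM in the fat pad, and 51 of the 53 4T1.2 culture wells lay above every well of each of these groups.

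Within 4T1.2 the members also changed little between culture and day 4 in bone. Their median log2 ratio was −0.19 over 44 members, and −0.13 over all genes. At least 1.5-fold higher were 4 members (Scarf2 at 1.21, Pkp2 at 1.16, Ydjc at 0.73 and Hira at 0.63), where 11.1% of all genes were. Lower were 3 (Sdf2l1 at −1.53, Bcl6 at −0.76 and Dnajb11 at −0.62), where 15.0% of all genes were. Igf2bp2 stood at 0.04 and Senp2 at −0.24. The lines thus differed over this stretch both in cells that were never injected and in cells recovered from bone at day 4.

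**Figure D5:**
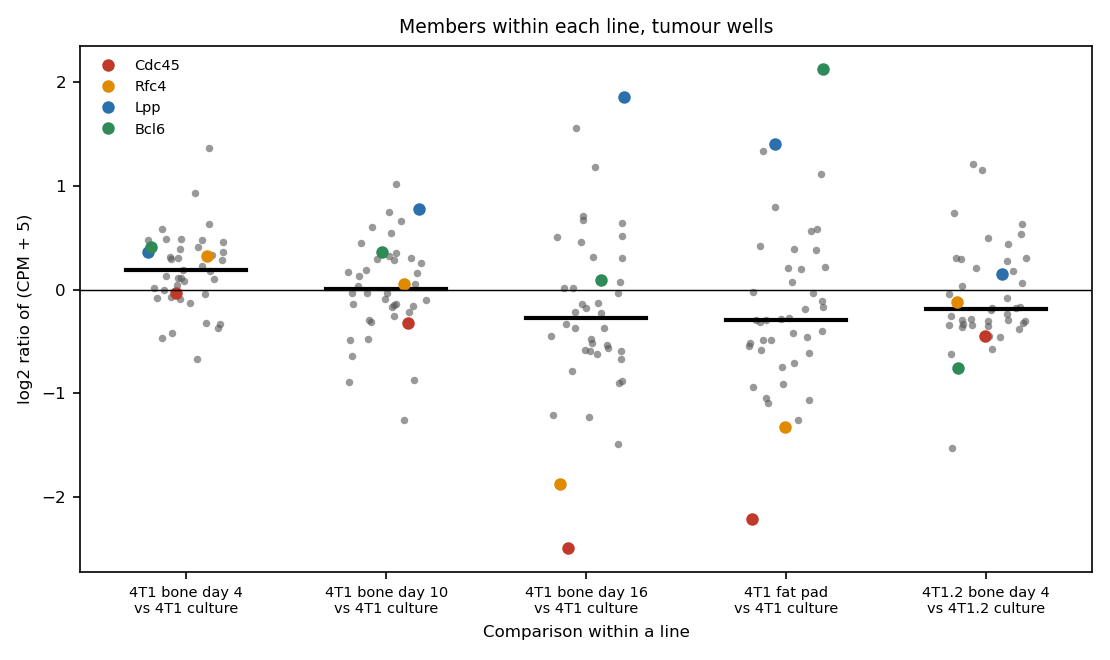
Log2 ratio of CPM plus 5 of each compared member within a line, for 4 groups of 4T1 against 4T1 culture and for 4T1.2 at day 4 against 4T1.2 culture, with 1 point per member and a bar at the median. Medians lie between −0.29 and 0.19; Cdc45 and Rfc4 lie lowest at day 16, Lpp highest at day 16 and Bcl6 highest in the fat pad.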

How the data were processed

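Libraries were made from single sorted cells with a modified Smart-seq2 protocol and read as paired 150-base reads, per the labels' protocols. The authors deposited whole-number read counts per gene symbol, 1 column per cell. The submitters' processing notes name mm10 and, with no role or order, STAR 2.6.0c, featureCounts 1.6.2, SAMtools 1.7, Trim Galore 0.6.6, FastQC 0.11.7, Seurat 3.1.2 and R 3.6.2. Which annotation was used for counting is not given in the sources. The protocol does not mark strand, so reads of overlapping genes cannot be told apart; 22 members have such an overlap. Of 40840 entries, 78 spike-ins (0.67% of counts), 2 reporters and 4 repeated date-like names were left out of totals.

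Wells needed at least 1000 detected genes, 50000 counts and at most 25% mitochondrial counts. Counts of the tumour wells of a group were added up, and CPM were formed from the sums with edgeR 4.0.16 (TMM factors) in R 4.3.3 (Python 3.11.15, numpy 2.4.6, pandas 2.3.3 and scipy 1.17.1 otherwise, figures with matplotlib 3.10.9). Values of single wells are CPM of the well's own total, without TMM. Genes with at least 5 CPM in either group were compared by the log2 ratio of CPM plus 5, and 1.5-fold counted as higher or lower. No test was run, because each group is 1 sample. The steps were tested on simulated data. Positions and exon lengths are from GENCODE M21 (GRCm38), promoters from RefSeq. Named in full were the 2 members with the highest 4T1.2 culture CPM in each role, and the 3 highest and 3 lowest ratios of each contrast; other members are named with single values. The members, roles, partners and lists were chosen with earlier results of these data known. The alternatives tried were size factors of DESeq2 1.42.0, library totals alone, a pseudocount of 1, no filter or at least 20 CPM, a stricter well rule, no cell filter, wells weighted equally, genes without exon overlap, a 2-fold line, and, chosen after seeing the data, 4T1.2 culture without 2 wells.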

Additional observations from a re-analysis of the deposited data

Results flagged for a closer look

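For 2 members, Bcl6 and Pkp2, the difference between 4T1.2 and 4T1 changed direction from culture to day 4 and was at least 1.5-fold at day 4. Other members, such as Spidr, Trmt2a and Dgcr2, also changed direction, with less than 1.5-fold in both contrasts. Bcl6 was lower in 4T1.2 at day 4 and slightly higher in culture, a difference of −1.17 between its log2 ratios (day 4 minus culture). Pkp2 was higher in 4T1.2 at day 4 and slightly lower in culture, a difference of 1.82. Neither difference was tested, since each group is 1 sample.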

How the results depend on the processing

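Over 12 results, 113 values were computed under the alternatives. A count was taken as unchanged within 1.5 times, and a median within the 95% binomial interval of the median over its genes, which is wide for short lists; by this, 104 were unchanged, 9 moved and none reversed. With only genes without exon overlap, the members' median was 1.81 in culture and 1.49 at day 4, and 21 of 23 were at least 1.5-fold higher in either, a smaller count because fewer genes were compared. Library totals without TMM gave a median of −0.18 for members of 4T1 at day 10 against culture, next to −0.17 for all genes. Members and all genes thus moved alike under this setting, which leaves out TMM factors of 1.07 for 4T1 culture and 0.94 for 4T1 at day 10. For the unlisted genes of the stretch, no filter on low values gave medians of 0.020 in culture and 0.030 at day 4, since it adds genes with hardly a count. Without exon overlap their culture median was 0.71 in place of 1.40 (19 genes in place of 35), inside that wide interval, and the share higher was 52.6% in place of 71.4%. At day 4 they had 1.49 with a pseudocount of 1 (45 genes) and 1.496 with at least 20 CPM (26 genes), and the cause was not tested. The members' medians between the lines ran from 1.33 to 1.81 in culture and from 1.14 to 1.49 at day 4 over all alternatives. No paired analysis was possible because the cell numbers in the labels only name cells and no result comes from a test. With 1 sample per group, depth limits only the weakest genes, such as Map3k13, and nothing here covers variation between mice or cultures.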
